A study of Mus musculus with 6 samples.

Results

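The genes described here are the heat shock proteins, their J-protein and BAG partners, the CCT chaperonin and the heat shock factors, 91 genes of the 29703 gene symbols in the table. They were taken by symbol: the HSP90, HSP70, HSP110, HSP60, HSP10 and small heat shock protein names, the Dnaja, Dnajb and Dnajc names, Bag and Cct followed by a number, and the numbered Hsf genes. Another 7 symbols with a pseudogene suffix met the naming rule and were left out. After the filter on low counts, 82 of the 91 were tested and 9 were not.

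Lungs of balb/c mice were sequenced in bulk on day 14 (D14) and on day 0 (D0) after orthotopic implantation of K7M2, an osteosarcoma line of mouse origin known to metastasise to lung, with 3 libraries per day. Animals of both days belonged to the same strain, both days are labelled as after implantation, and the labels give no genotype, age or other agent for either. No D14 group without implanted cells was given, so tumour, procedure, age and day of collection cannot be told apart for any gene below. The libraries are numbered as biological replicates, but whether each was 1 mouse is not stated, and a p-value here reflects only how these libraries spread. The tissue is labelled as lungs, although the RNA extraction protocol speaks of BMDMs, an abbreviation usual for cultured macrophages of the bone marrow. All 9 lung epithelial markers were detected in every library, with summed levels of 36170 to 50220 CPM (counts scaled to library size with TMM factors) at D14 and 34600 to 64340 CPM at D0.

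Chaperones bind unfolded protein chains and help them fold, and the families divide the work by compartment. HSP70 proteins hold exposed stretches of a chain in a cycle driven by ATP, in which J-proteins deliver the client and start the cycle and BAG and HSP110 proteins release the nucleotide. HSP90 finishes the folding of kinases and steroid receptors, the small heat shock proteins keep damaged chains soluble, and the ring-shaped chaperonins enclose them, CCT in the cytosol and HSP60 with its lid HSP10 in mitochondria. Heat shock factor 1 drives the inducible cytosolic members through heat shock elements, whereas the chaperones of the endoplasmic reticulum (ER) answer to the unfolded protein response through ER stress elements.

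Library totals ran from 14878101 to 17385006 counts, and 3 counts in a library, the limit that a count of 0 allows, corresponded to 0.173 to 0.202 CPM, which covers counting error only. On the first principal component of all genes, 1 library, D0 replicate 3, was far from the rest (82.85, against -41.48 to 15.71 in the other libraries). The 8 skeletal muscle markers summed to 28.15 to 188.4 CPM in the D14 libraries, and to 114.2 and 237.2 CPM in the other D0 libraries and 1027 CPM in this one. The 5 red cell markers summed to 16430 to 28890 CPM in the D14 libraries, and to 9237 and 18920 CPM in the other D0 libraries and 52460 CPM in this one.

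The members together took 0.839%, 0.855% and 0.806% of all counts in the D14 libraries, against 0.697%, 0.710% and 0.749% in the D0 libraries. All 3 D14 shares lay above all 3 D0 shares. Much of the total came from a few genes. Hsp90ab1 alone made up 15.2% to 15.6% of the members' counts at D14 and 12.8% to 14.4% at D0, and the 5 genes with the most counts over all 6 libraries, Hsp90ab1, Hsp90b1, Hspa5, Hspa8 and Hsp90aa1, made up 39.2% to 41.6% at D14 and 34.6% to 38.4% at D0. In bulk tissue, a change in the share of cells of a type and a change in RNA per cell cannot be told apart.

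The log2 fold change, D14 over D0, was positive for 57 of the 82 tested members, and its median was 0.16. Across all 17686 genes tested, 46.9% had a positive value and the median was -0.03. No member passed an adjusted p of 0.05 in edgeR's quasi-likelihood test (Benjamini-Hochberg over all genes), where 0.0339% of all genes, 6 in number, did. At an unadjusted p under 0.05, 12 members were higher at D14 and 2 were lower, beside 5.48% and 7.09% of all genes. For the members this was 14.6% and 2.44%. DESeq2 placed 5 members past the adjusted threshold, beside 1.55% of all genes, namely Hsph1, Hspa1a, Hspa4l, Hspa1b and Bag3, all from the inducible cytosolic group, and limma-voom placed 0. Without scaling factors, 8 members were higher and 5 lower at the unadjusted threshold, beside 2.96% and 9.82% of all genes.

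The 3 D14 libraries lay wholly above the 3 D0 libraries for 19 members, 23.2% of those tested, and wholly below them for 3, or 3.66%. Over all genes these shares were 10.9% and 10.7%. The count at an unadjusted p under 0.05 was 14 with all libraries, beside 12.6% of all genes. It was 23 when D0 replicate 3 was left out, beside 11.6% of all genes. It was 8 when D14 replicate 2 or D14 replicate 3 was left out, beside 6.76% and 6.65% of all genes. With D0 replicate 3 left out, 34 members lay wholly above and 7 wholly below, beside 15.3% and 16.5% of all genes. With D0 replicate 1 left out, 26 lay wholly above and 8 wholly below, beside 20.1% and 19.8% of all genes.

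**Figure D1:**
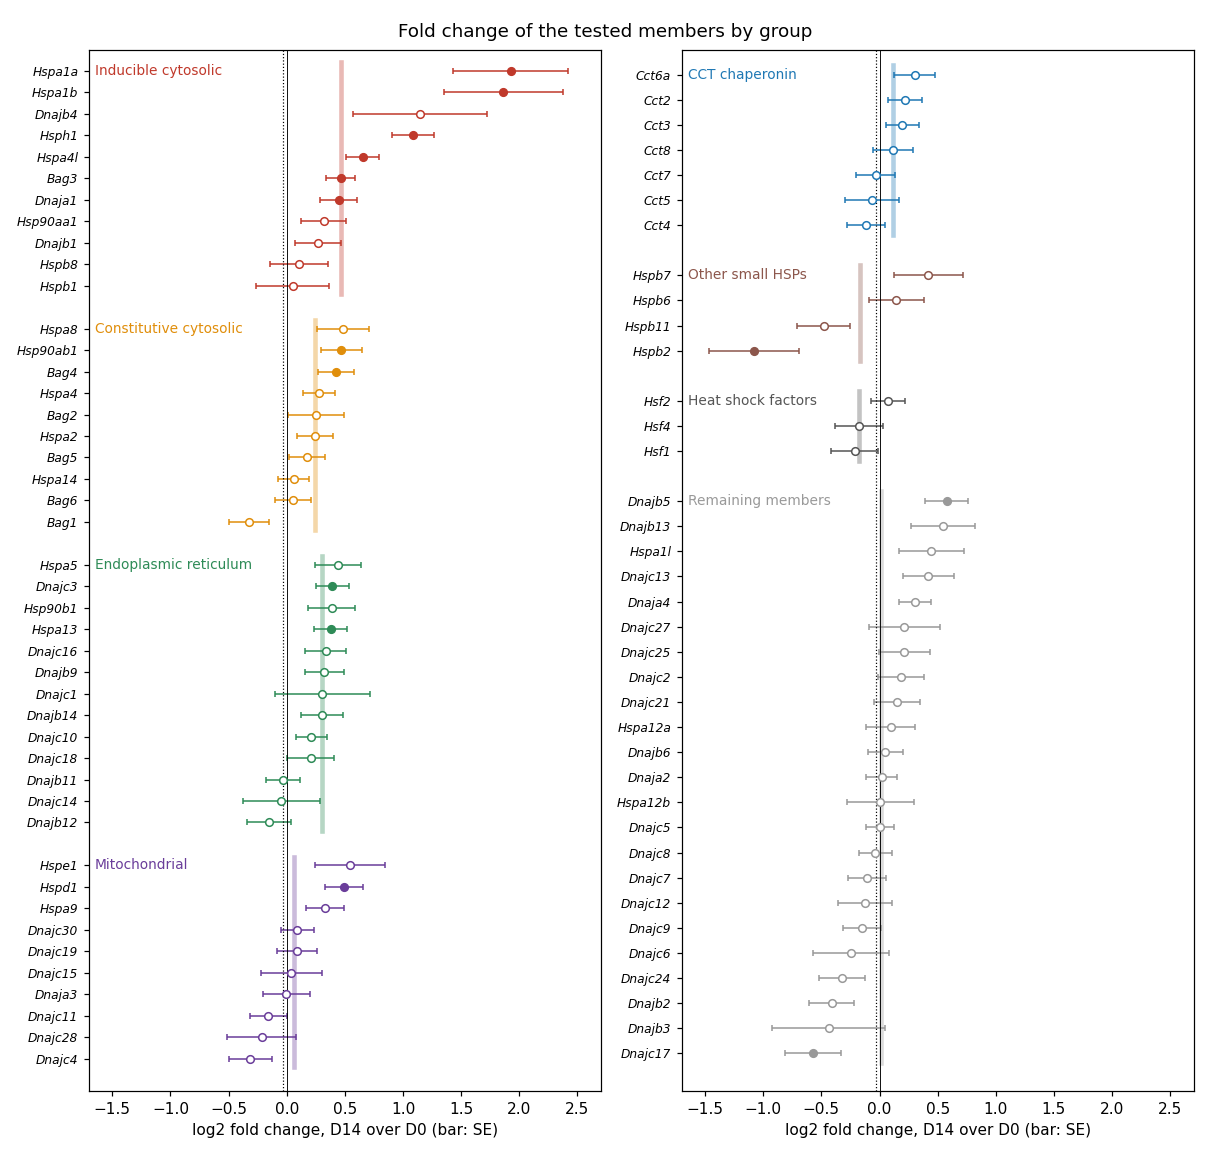
The log2 fold change, D14 over D0, of 81 of the 82 tested members with its SE as a bar, in groups by compartment; filled points have an unadjusted p under 0.05, the wide line is the median of a group and the dotted line is the median of all genes, -0.03. The inducible cytosolic group has the highest median, 0.47, and Hspb2 is the lowest point at -1.08. The groups were drawn up with earlier results of these data known.

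The inducible cytosolic group holds 11 genes that heat shock factor 1 is known to induce or that are known stress-inducible partners. The group was drawn up with earlier results of these data known. All 11 had a positive log2 fold change, with a median of 0.47. At an unadjusted p under 0.05, 6 were higher at D14, beside 5.48% of all genes. The D14 libraries lay wholly above the D0 libraries for 5, beside 10.9% of all genes. With D0 replicate 1 left out, 9 were positive, with Hspb1 at -0.18 and Hspb8 at -0.12. With D0 replicate 2 left out, 10 were positive. The mean log2 CPM of the group was 6.61, 6.55 and 6.11 in the D14 libraries and 5.44, 5.90 and 5.67 in the D0 libraries, so the days did not overlap in this mean, with D14 replicate 3 nearest to D0.

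Hsph1, the inducible HSP110 that exchanges the nucleotide of HSP70, had the smallest p of all members. Its levels were 79.5, 102 and 104 CPM at D14, against 53.1, 42.8 and 38.1 CPM at D0. Every D14 library was above every D0 library, and D0 replicate 1 was the highest of its day. Its log2 fold change was 1.09 (SE 0.18, unadjusted p = 0.000436, adjusted p = 0.189 in edgeR's quasi-likelihood test), a 2.12-fold higher level. The value stayed between 0.99 and 1.24 when each library was left out in turn. Hsph1 lies on the minus strand at chr5:149614287-149636376 (GRCm38).

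Hspa1a and Hspa1b, neighbouring genes for the strongly inducible HSP70, had the highest fold changes of all members and a wide spread at D14. Hspa1a was at 65.1, 39.1 and 15.9 CPM at D14, against 7.27, 14.4 and 9.97 CPM at D0. The D14 libraries spanned 4.09-fold among themselves, and D14 replicate 3 stood just above the highest D0 library. Hspa1a had a log2 fold change of 1.93 (SE 0.50, unadjusted p = 0.00536, adjusted p = 0.347). Hspa1b was at 115, 87.8 and 30.5 CPM at D14, against 12.4, 30.9 and 20.9 CPM at D0. Here D14 replicate 3 lay within the D0 range, and the log2 fold change was 1.86 (SE 0.51, adjusted p = 0.347).

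The transcripts of this pair are 99.2% identical over 2201 bases, so how reads were split between them is uncertain. Summed, they gave 180.2, 126.8 and 46.4 CPM at D14, against 19.7, 45.2 and 30.9 CPM at D0. The sum of D14 replicate 3 was close to that of D0 replicate 2. For the sum, the log2 fold change was 1.88 (SE 0.51, adjusted p = 0.347 in edgeR's test). For Hspa1a alone it was 1.39 without D14 replicate 1 and 2.31 without D14 replicate 3. Hspa1a lies at chr17:34969190-34972156 and Hspa1b at chr17:34956436-34959238, both on the minus strand (GRCm38).

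**Figure D2:**
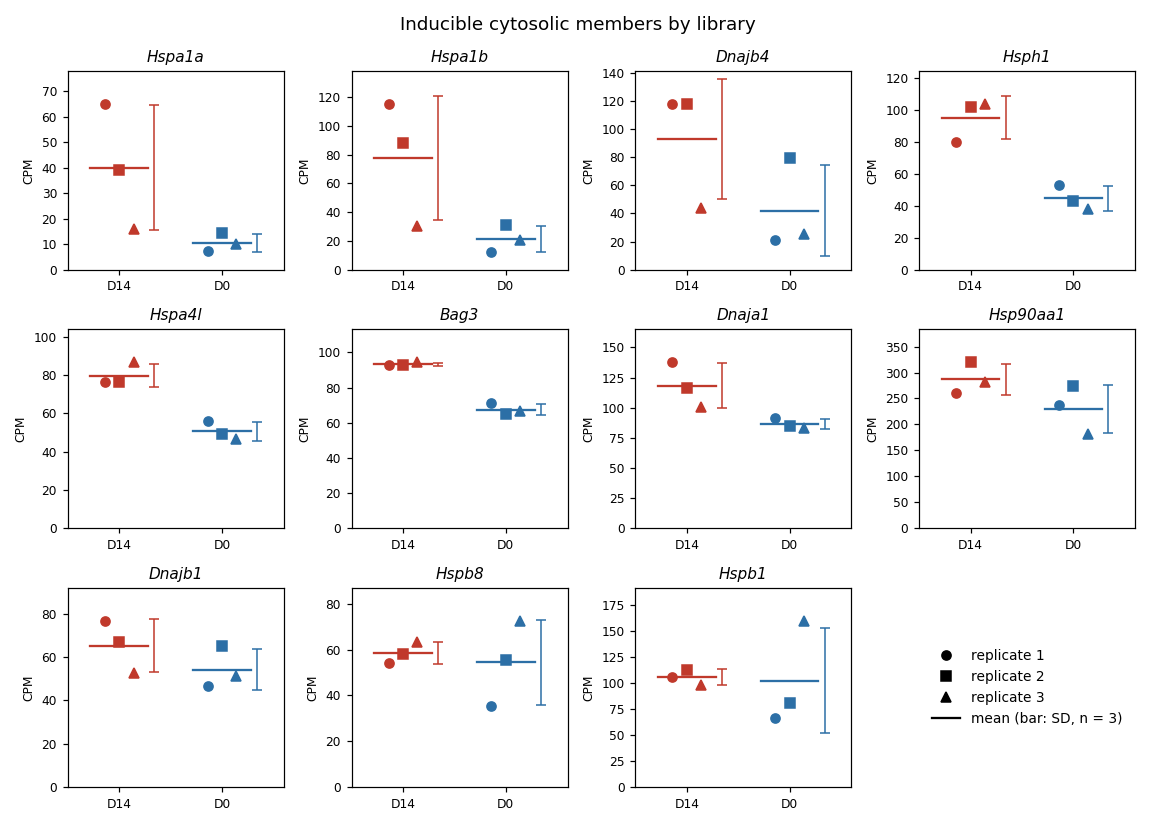
Levels of the 11 inducible cytosolic members in each library (TMM-scaled CPM, each axis starting at 0), D14 in red at the left and D0 in blue at the right, with the replicate number as the symbol, the mean as a line and the SD (n = 3) as a bar. The days are separate for Hsph1, Hspa4l, Bag3, Dnaja1 and, narrowly, Hspa1a. The D14 points of Hspa1a spread over 15.9 to 65.1 CPM and those of Hspa1b over 30.5 to 115 CPM.

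Hspa4l, another stress-inducible HSP110 relative, was at 76.2, 76.1 and 86.5 CPM at D14, against 56.2, 49.0 and 46.7 CPM at D0. The days were separated, with D0 replicate 1 the highest of its day, and the log2 fold change was 0.65 (SE 0.14, adjusted p = 0.324). Bag3, which couples HSP70 to small heat shock proteins and to selective autophagy, was at 92.6, 92.9 and 94.3 CPM at D14, against 71.0, 65.0 and 66.5 CPM at D0. Its D14 libraries were nearly identical, and the log2 fold change was 0.47 (SE 0.12, adjusted p = 0.347). Dnaja1, a J-protein that delivers clients to cytosolic HSP70, was at 137.5, 116 and 100.3 CPM at D14, against 91.6, 84.8 and 83.5 CPM at D0. These libraries did not overlap either, and the log2 fold change was 0.45 (SE 0.16, adjusted p = 0.364).

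Other inducible members differed little between days against their spread. Hsp90aa1, the inducible cytosolic HSP90, was at 260.5, 319 and 282 CPM at D14, against 237, 273 and 182 CPM at D0. The ranges overlapped, and the log2 fold change was 0.32 (SE 0.19) and 0.17 without D0 replicate 3. Dnajb1, the J-protein best known as a heat shock factor 1 target, was at 76.9, 66.9 and 52.6 CPM at D14, against 46.6, 65.0 and 51.3 CPM at D0, and its log2 fold change was 0.27 (SE 0.20). D14 replicate 1 and D14 replicate 2 were above all D0 libraries, and D14 replicate 3 was not. Hspb1, the main small heat shock protein of many cells, was at 106, 113 and 98.2 CPM at D14, against 66.3, 80.5 and 159.8 CPM at D0. D0 replicate 3 was the highest of all libraries. The log2 fold change of 0.05 (SE 0.31) was 0.53 without D0 replicate 3, and it turned to -0.18 without D0 replicate 1 and to -0.092 without D0 replicate 2. Dnaja1, Hsp90aa1 and Hspb1 also have near-identical copies in the genome, so reads shared with those are uncertain.

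Dnajb4, a close relative of Dnajb1 named here after its values were seen, was at 118, 118 and 43.6 CPM at D14, against 21.3, 79.4 and 25.6 CPM at D0. Each day held a library far from its others, D14 replicate 3 low and D0 replicate 2 high. Its log2 fold change was 1.14 with an SE of 0.57, and 1.99 without D0 replicate 2. The lowest D14 library for 6 of the 11 members was replicate 3, including Hspa1a, Hspa1b and Dnajb4, while for 4 it was replicate 1, including Hsph1, Bag3 and Hspb8.

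Immediate early genes, which respond quickly to stress and handling, were also higher at D14 in their sum. All 10 on the list (Fos, Fosb, Jun, Junb, Egr1, Ier2, Atf3, Nr4a1, Dusp1 and Zfp36) were detected in every library and had a positive log2 fold change, with a median of 0.85. Their summed level was 2253, 2129 and 1871 CPM at D14, against 883, 1476 and 1338 CPM at D0. D14 replicate 3 was the lowest of its day and D0 replicate 1 the lowest of its own, as for the group mean of the inducible members. Endothelial markers were higher in their sum as well, with 7 of 7 detected in every library and summed levels of 4643 to 4772 CPM at D14 and 2095 to 3949 CPM at D0. No gene of either list passed the adjusted threshold. At an unadjusted p under 0.05 in edgeR's test, 6 immediate early genes and 5 endothelial markers were higher, beside 5.48% of all genes. The days overlapped for Junb, Zfp36 and Cdh5. The part of either in the values of the inducible members was not tested.

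**Figure D3:**
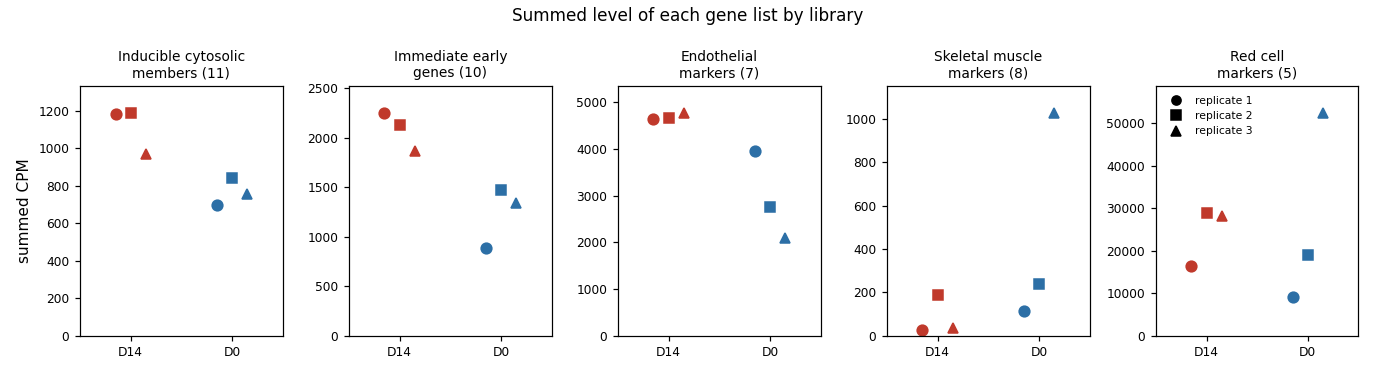
Summed TMM-scaled CPM of the 11 inducible members and of 4 marker lists in every library, D14 in red at the left and D0 in blue at the right, with the replicate number as the symbol and each axis starting at 0. The inducible members, the immediate early genes and the endothelial markers are higher in all D14 libraries than in all D0 libraries, and skeletal muscle reaches 1027 CPM in D0 replicate 3.

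Heat shock elements are the base pattern to which trimers of heat shock factors bind, and ER stress elements the one bound by ATF6 with NF-Y. Both were looked for on both strands in the promoter windows of the RefSeq table (GRCm38.p6), from 250 bases before to 50 bases after a start, and 72 of the 91 members had such a window. A heat shock element of 2 units was written GAANNTTC or TTCNNGAA, one of 3 units GAANNTTCNNGAA or TTCNNGAANNTTC, which contains the shorter form, and an ER stress element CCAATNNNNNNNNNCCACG. The 3-unit form stood in the windows of Hsph1, Hspd1, Hspe1 and Dnajb6, 5.56% of these 72 members, beside 0.662% of the 27025 genes in the table. In Hspd1 and Hspe1 it is the same stretch of the genome, read from opposite strands. The 2-unit form stood in 21 of the 72, 29.2%, beside 17% of all genes, and in 8 of the 10 inducible members with a window. These include Hspa1a and Hspa1b, whose windows are near-identical. The ER stress element stood in Hspa5, Hsp90b1 and Dnajc3, 4.17% of the 72, beside 0.137% of all genes. These are matches of letters in a window and not measured binding. The inducible group was drawn from genes already known for induction by heat shock factor 1 or by stress. Its share of heat shock elements is therefore no result of these libraries, and neither is the ER stress element in known ER stress genes.

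The promoters of the members that the results turn on most are printed here, 250 bases before the start, 5′ to 3′ on the strand of the gene, from RefSeq (GRCm38.p6). Capitals mark the heat shock elements in Hsph1, Hspa1a, Hspb1 and Hspe1 and the ER stress elements in Hspa5 and Hsp90b1. Hsph1 (chr5:149636337-149636586, minus strand) and Hspa1a (chr17:34972157-34972406, minus strand) were among the highest fold changes of the inducible group. Hspb1 (chr5:135887669-135887918, plus strand) holds 2 elements but had a log2 fold change of 0.05. Hspe1 (chr1:55087898-55088147, plus strand) has a window that overlaps one of Hspd1, which reads the other way. Hspa5 (chr2:34771840-34772089, plus strand) and Hsp90b1 (chr10:86705445-86705694, minus strand) carry the ER stress element, and Hsp90b1 has 2 of them.
Hsph1: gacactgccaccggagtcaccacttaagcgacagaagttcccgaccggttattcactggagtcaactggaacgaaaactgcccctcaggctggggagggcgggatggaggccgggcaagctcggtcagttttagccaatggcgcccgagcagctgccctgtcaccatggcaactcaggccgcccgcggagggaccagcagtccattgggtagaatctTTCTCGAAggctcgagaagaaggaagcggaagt
Hspa1a: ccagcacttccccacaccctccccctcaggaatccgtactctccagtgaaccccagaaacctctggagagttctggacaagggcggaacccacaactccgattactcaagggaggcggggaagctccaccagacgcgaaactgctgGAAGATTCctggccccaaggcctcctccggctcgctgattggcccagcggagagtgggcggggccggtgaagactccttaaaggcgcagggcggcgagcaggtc
Hspb1: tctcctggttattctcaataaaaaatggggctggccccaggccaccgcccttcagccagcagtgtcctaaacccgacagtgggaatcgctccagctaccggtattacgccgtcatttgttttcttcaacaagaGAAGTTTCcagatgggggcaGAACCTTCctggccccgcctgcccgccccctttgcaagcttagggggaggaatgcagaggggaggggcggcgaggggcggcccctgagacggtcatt
Hspe1: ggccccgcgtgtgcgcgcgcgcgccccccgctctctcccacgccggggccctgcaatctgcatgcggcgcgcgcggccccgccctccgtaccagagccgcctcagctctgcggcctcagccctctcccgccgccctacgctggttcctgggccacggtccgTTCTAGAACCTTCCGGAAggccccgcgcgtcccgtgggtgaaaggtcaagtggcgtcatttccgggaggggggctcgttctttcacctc
Hspa5: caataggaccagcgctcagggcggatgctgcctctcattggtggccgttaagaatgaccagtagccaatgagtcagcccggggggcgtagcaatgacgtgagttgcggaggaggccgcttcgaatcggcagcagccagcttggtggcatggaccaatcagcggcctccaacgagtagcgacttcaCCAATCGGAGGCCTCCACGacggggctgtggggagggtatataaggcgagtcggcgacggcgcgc
Hsp90b1: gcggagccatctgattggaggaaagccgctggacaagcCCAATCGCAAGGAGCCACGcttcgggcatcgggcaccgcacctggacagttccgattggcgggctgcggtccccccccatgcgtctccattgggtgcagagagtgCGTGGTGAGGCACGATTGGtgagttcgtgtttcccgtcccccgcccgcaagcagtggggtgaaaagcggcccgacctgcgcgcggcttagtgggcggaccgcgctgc
In Hsph1, the 3-unit element lies after the start, at bases 37 to 49 (chr5:149636288-149636300, minus strand): TTCTGGAAAGTTC. From a second annotated start of Hsph1, this element lies at bases 16 to 28. The Hsph1 gene as placed by GENCODE begins before both starts, inside the printed stretch. In Hspa1a and Hspa1b the 2-unit element lies at the same place, bases -104 to -97, and Hspe1 holds overlapping 3-unit elements within bases -89 to -72. A member with a 2-unit element could be among the highest fold changes, as Hspa1a at 1.93, or near 0, as Hspb1 at 0.05 (0.53 without D0 replicate 3). The inducible members with a window and no element were Hspa4l, at 0.65, and Dnajb1, at 0.27.

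**Figure D4:**
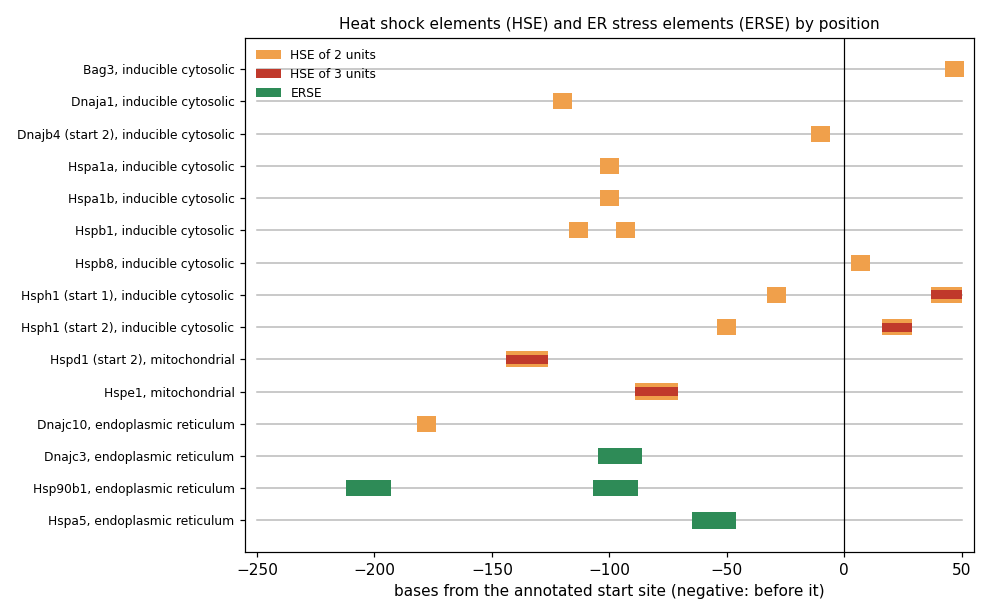
Places of heat shock elements (HSE) and ER stress elements (ERSE) in the promoter windows of the inducible cytosolic, mitochondrial and ER members that hold one, in bases from the annotated start (negative before it). ER stress elements lie before the start in Dnajc3, Hsp90b1 and Hspa5, and the 3-unit heat shock elements belong to Hsph1, Hspd1 and Hspe1.

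The constitutive cytosolic members carry the bulk of everyday folding. Of 10 genes, 9 had a positive log2 fold change and the median was 0.25. At an unadjusted p under 0.05, 2 were higher at D14, beside 5.48% of all genes. The D14 libraries lay wholly above the D0 libraries for 5, beside 10.9% of all genes. The median was 0.17 without scaling factors, when 7 of the 10 were positive. The mean log2 CPM of the group was 6.43, 6.51 and 6.44 at D14, against 6.22, 6.23 and 6.29 at D0. The days did not overlap, and the pooled SD within days was 0.04. Such means can be separate with a small shift. That of all genes tested was lower at D14, at 3.929 to 3.936 against 3.951 to 3.970. That of the other J-proteins and HSP70-like genes was 4.495 to 4.577 at D14 and 4.470 to 4.492 at D0.

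Hsp90ab1, the constitutive HSP90, was at 1318, 1373 and 1265 CPM at D14, against 864, 874 and 1123 CPM at D0. All D14 libraries were above all D0 libraries, with D0 replicate 3 nearest to them. Its log2 fold change was 0.47 (SE 0.18, adjusted p = 0.371 in edgeR's test). Per kilobase of its longest annotated transcript it was the most abundant member on both days, at 523 ± 21.5 CPM per kb at D14 and 378 ± 58.4 CPM per kb at D0 (SD, n = 3 each). Hspa8, the constitutive HSP70, was at 491, 549 and 451 CPM at D14, against 250.4, 409 and 408 CPM at D0. D0 replicate 1 was below all others, and the log2 fold change was 0.48 (SE 0.22, adjusted p = 0.415) and 0.29 without D0 replicate 1. Hspa8 has several processed copies with near-identical stretches, so reads shared with them are uncertain.

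Among the BAG proteins, the values differed in sign. Bag4, which holds death receptors silent, was at 22.2, 22.1 and 25.6 CPM at D14, against 16.4, 19.2 and 16.4 CPM at D0, without overlap, and its log2 fold change was 0.43 (SE 0.16, adjusted p = 0.365). Bag1, the nucleotide exchange factor that links HSP70 to the proteasome, was at 208, 197 and 219 CPM at D14, against 216, 261 and 306 CPM at D0. It was the 1 constitutive member with a negative log2 fold change, -0.33 (SE 0.17) and -0.20 without D0 replicate 3, and D14 replicate 3 overlapped with D0 replicate 1. Per kilobase, Bag1 was at rank 5 among the members at D14, at 154 ± 7.95 CPM per kb, and at rank 2 at D0, at 193.5 ± 33.5 CPM per kb (SD, n = 3 each). Bag2, Bag5 and Bag6 had log2 fold changes of 0.25, 0.18 and 0.05, with overlapping libraries.

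Hspa4, the constitutive HSP110, had D14 libraries of 199, 234 and 219 CPM above D0 libraries of 176, 179 and 183 CPM, and a log2 fold change of 0.28 (SE 0.14). Hspa2, an HSP70 best known from germ cells, had a value of 0.24 (SE 0.15), and Hspa14, an HSP70 of the ribosome-associated complex, 0.06 (SE 0.13).

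The 13 ER members, which fold secreted and membrane proteins, had a median log2 fold change of 0.31. The value was positive for 10 and negative for 3. At an unadjusted p under 0.05, 2 were higher at D14, Dnajc3 and Hspa13, beside 5.48% of all genes. In 4 genes the D14 libraries lay wholly above the D0 libraries, beside 10.9% of all genes. The mean log2 CPM of the group was 6.52, 6.54 and 6.69 at D14, against 6.25, 6.33 and 6.41 at D0. These means did not overlap, and D0 replicate 3 was the D0 library nearest to D14.

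Hspa5 (BiP), the HSP70 of the ER and a classical target of the unfolded protein response, was at 602, 686 and 624 CPM at D14, against 395, 422 and 592 CPM at D0. The lowest D14 library was just above D0 replicate 3. The log2 fold change was 0.44 (SE 0.20, adjusted p = 0.409) and 0.64 without D0 replicate 3. Hsp90b1 (GRP94), the HSP90 of the ER, was at 646.5, 742 and 765 CPM at D14, against 496, 454 and 697.5 CPM at D0. D0 replicate 3 lay above D14 replicate 1 here, and the log2 fold change was 0.39 (SE 0.21, adjusted p = 0.452) and 0.60 without D0 replicate 3. After Hsp90ab1, this pair had the highest levels per kilobase at D14, 223 ± 19.5 CPM per kb for Hsp90b1 and 173.5 ± 11.9 CPM per kb for Hspa5.

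Dnajc3, a J-protein of BiP also known as an inhibitor of the kinase PERK, was at 235, 259 and 269 CPM at D14, against 204, 199 and 179.6 CPM at D0. The days were separate, and the log2 fold change was 0.39 (SE 0.14, adjusted p = 0.365). Hspa13, a small HSP70-like ATPase of microsomes, was at 46.8, 57.9 and 56.1 CPM at D14, against 40.8, 42.5 and 40.2 CPM at D0. Its D0 libraries were close together and its log2 fold change was 0.38 (SE 0.14, adjusted p = 0.367). The remaining ER J-proteins ran from -0.15 for Dnajb12, a membrane J-protein of ER quality control, to 0.33 for Dnajc16. Dnajb11, a soluble BiP partner, had a value of -0.03, and Dnajb9, another BiP partner induced in the unfolded protein response, one of 0.32.

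Among 16 ER partners outside the families, 12 had a positive log2 fold change and 4 a negative one, with a median of 0.10. Beside 5.48% of all genes, 2 of these partners were higher at D14 at an unadjusted p under 0.05. These were Hyou1, the HSP110 of the ER, at 76.7, 99.5 and 89.8 CPM at D14, against 64.0, 65.0 and 57.1 CPM at D0, and Canx, the lectin chaperone calnexin, at 378, 428 and 437 CPM at D14, against 298, 301 and 321 CPM at D0. The log2 fold change of Hyou1 was 0.52 (SE 0.15) and that of Canx 0.43 (SE 0.14). Neither gene had overlapping days, and neither passed the adjusted threshold.

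The 10 mitochondrial members had a median log2 fold change of 0.063, with 6 positive and 4 negative values. Without scaling factors the median was 0.00 and 5 were positive. The positive side was led by the folding machines of the matrix. Hspd1 (HSP60), the chaperonin ring, was at 134, 148 and 156 CPM at D14, against 92.4, 95.9 and 124 CPM at D0. The days did not overlap, with D0 replicate 3 the highest of its day, and the log2 fold change was 0.49 (SE 0.16, adjusted p = 0.364). Added to its near-identical copy Hspd1-ps3, the value was 0.46 (SE 0.16).

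Hspe1 (HSP10), the lid of that ring, was at 36.4, 39.4 and 34.2 CPM at D14, against 17.4, 19.4 and 38.5 CPM at D0. D0 replicate 3 stood among the D14 libraries while the other D0 libraries were well below. For Hspe1, the log2 fold change was 0.55 (SE 0.30, adjusted p = 0.460) and 1.00 without D0 replicate 3. How reads shared with similar sequences were assigned is uncertain for Hspe1. Hspa9 (mortalin), the HSP70 of the matrix and of protein import, was at 194, 193.5 and 223 CPM at D14, against 138, 163 and 185 CPM at D0, without overlap, and its log2 fold change was 0.33 (SE 0.16, adjusted p = 0.430).

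The mitochondrial J-proteins had values near 0 or negative. Dnajc30, Dnajc19 and Dnajc15 had log2 fold changes of 0.09, 0.09 and 0.04, and Dnaja3, the main J-protein of mortalin, -0.00. Dnajc11, Dnajc28 and Dnajc4 had -0.16, -0.22 and -0.31, with SEs of 0.16 to 0.30. Of 12 mitochondrial partners outside the families, such as the matrix proteases Lonp1 and Clpp, 7 were positive and 5 negative, with a median of 0.03. The 1 at an unadjusted p under 0.05 was Htra2, a protease of the intermembrane space, which was lower, as were 7.09% of all genes. Htra2 was at 19.4, 18.9 and 19.2 CPM at D14, against 23.8, 27.1 and 33.8 CPM at D0, a log2 fold change of -0.56 (SE 0.17).

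**Figure D5:**
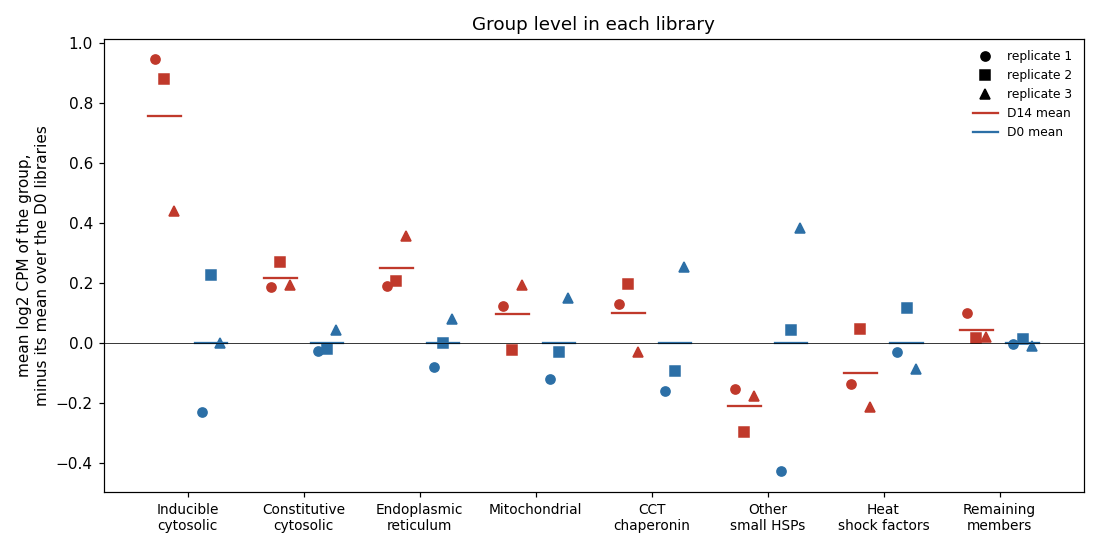
Mean log2 CPM of the members of each group in every library, minus its mean over the D0 libraries, D14 in red at the left of each pair and D0 in blue at the right, with the replicate number as the symbol and the mean of a day as a line. The inducible cytosolic, constitutive cytosolic and ER means are higher in all D14 libraries than in all D0 libraries, whereas the means of the other groups, save that of the remaining members, overlap.

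The CCT chaperonin, the ring that folds actin and tubulin, showed no separation of the days in any subunit with all libraries kept. Of the 7 tested subunits, 4 had a positive and 3 a negative log2 fold change, the median was 0.11, and none was at an unadjusted p under 0.05 in edgeR's test. The group mean was 7.09, 7.16 and 6.93 log2 CPM at D14, against 6.80, 6.87 and 7.22 at D0, so D0 replicate 3 was the highest of all libraries. Cct2 was at 155, 172 and 145 CPM at D14, against 128, 128 and 148 CPM at D0, with a log2 fold change of 0.22 (SE 0.15). Cct5 was at 155.5, 158 and 133 CPM at D14, against 121, 133 and 212 CPM at D0. Its D0 libraries spanned the D14 range on both sides, and the log2 fold change of -0.06 (SE 0.23) turned to 0.23 without D0 replicate 3 and to 0.0135 without D14 replicate 3. Without D0 replicate 3 the group median was 0.25. The D14 libraries of Cct2, Cct3, Cct6a and Cct8 then lay wholly above the D0 libraries, in a setting that also raised this share over all genes. Cct4 and Cct7 still overlapped, and the nearest libraries of Cct5 were both at 133 CPM. A further subunit of the ring, Tcp1, fell outside the naming rule and was counted with the co-chaperones. Its days overlapped too, with a log2 fold change of 0.07 (SE 0.20).

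Small heat shock proteins outside the inducible group are mostly muscle proteins, and their median over 4 tested genes was -0.17. Hspb2, which binds and protects a muscle kinase, was at 8.75, 5.61 and 6.09 CPM at D14, against 8.61, 11.6 and 23.2 CPM at D0. D0 replicate 3 was the highest of all, and D0 replicate 1 lay just under D14 replicate 1. For Hspb2, the log2 fold change was -1.08 (SE 0.39, adjusted p = 0.364) and -0.56 without D0 replicate 3. The summed skeletal muscle markers were also highest in that library, and 3 of the 8 markers, Myh4, Myh1 and Myh2, were at 0 in at least 1 D14 library. Their part in the Hspb2 value was not tested.

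The exons of Hspb2 overlap those of Cryab, the small heat shock protein alphaB-crystallin, on the opposite strand, and the strand setting of the counting is not given in the sources used here. Cryab was at 118, 125 and 109.8 CPM at D14, against 128, 178 and 194 CPM at D0, with a log2 fold change of -0.50 (SE 0.19). Reads in the stretch that the pair shares can therefore not be told apart. Hspb11 (IFT25), a subunit of the transport complex of cilia, was at 7.12, 6.89 and 7.43 CPM at D14, against 8.08, 9.07 and 12.8 CPM at D0. Its D14 libraries all lay below the D0 libraries, and the log2 fold change was -0.48 (SE 0.23) and -0.26 without D0 replicate 3. All 9 ciliated cell markers were detected in every library, at summed levels of 455.7 to 607.9 CPM at D14 and 448.2 to 531.3 CPM at D0, and their log2 fold changes had a median of 0.01. Hspb6, a small heat shock protein of smooth and heart muscle, had a log2 fold change of 0.14 (SE 0.24). For Hspb7, known from heart muscle, it was 0.42 (SE 0.29), with overlapping days, and 0.20 without D0 replicate 1. All 8 cardiac muscle markers were detected in every library, with sums of 303.6 to 587.4 CPM at D14 and 135.1 to 263.9 CPM at D0, and their part in the Hspb7 value was not tested.

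The heat shock factors, the regulators of the inducible genes, had overlapping days in each tested gene. Hsf1, the main stress-responsive factor, was at 27.0, 28 and 26.1 CPM at D14, against 33.95, 37.6 and 22.6 CPM at D0. The D14 libraries lay inside the D0 range, and the log2 fold change was -0.21 (SE 0.20), with -0.40 when D0 replicate 3 was left out and -0.060 when D0 replicate 2 was. Hsf2, a factor known from development, was at 19.0, 19.9 and 18.3 CPM at D14, against 17.6, 17.7 and 19.2 CPM at D0, a value of 0.07 (SE 0.14) and 0.11 without D0 replicate 3. Hsf4, the factor of the lens, had -0.18 (SE 0.21). Hsf1 is regulated largely at the protein level, which these RNA data do not measure.

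A list of co-chaperones, other targets of heat shock factor 1 and further folding genes outside the families gave a mixed result. Of its 21 genes, 10 had a positive and 11 a negative log2 fold change, with a median of -0.04. The negative ones include all listed prefoldin subunits, Pfdn1, Pfdn2, Pfdn4, Pfdn5, Pfdn6 and Vbp1, from -0.55 for Pfdn5 to -0.09 for Vbp1. The median is therefore not one of heat shock factor 1 targets alone. At an unadjusted p under 0.05, 4 were higher and 1, Cryab, was lower, beside 5.48% and 7.09% of all genes. The 4 are partners of HSP70 and HSP90. Stip1 (HOP), which hands clients over between them, was at 124, 113 and 107 CPM at D14, against 79.8, 82.0 and 86.5 CPM at D0, a log2 fold change of 0.47 (SE 0.13). Chordc1, an HSP90 co-chaperone, had 0.49 (SE 0.14), Fkbp5, the HSP90 immunophilin induced by glucocorticoids, 0.87 (SE 0.24), and St13 (HIP) 0.37 (SE 0.16). In all 4, and in no other of the 21, the D14 libraries lay wholly above the D0 libraries, beside 10.9% of all genes. None of the 21 passed the adjusted threshold.

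The other J-proteins and HSP70-like genes, 24 tested of 27, centred on 0, with 14 positive and 10 negative values and a median of 0.01, which was -0.06 without scaling factors. Dnajb5, a J-protein close to Dnajb1, was at 36.5, 30.1 and 29.4 CPM at D14, against 24.3, 23.0 and 17.1 CPM at D0. The days did not overlap, and the log2 fold change was 0.58 (SE 0.19, adjusted p = 0.364). Dnajc17, a nuclear J-protein with an RNA recognition motif, was at 5.56, 4.85 and 4.49 CPM at D14, against 5.99, 6.96 and 9.20 CPM at D0. Its D14 libraries were all lower, and the log2 fold change was -0.57 (SE 0.24, adjusted p = 0.395) and -0.38 without D0 replicate 3. Its exons overlap Zfyve19 on the opposite strand, so reads in the stretch that the pair shares cannot be told apart.

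The days overlapped for Dnajc7 and Dnajc8, which had the highest levels per kilobase of this set. Dnajc7, a co-chaperone that binds both HSP70 and HSP90, was at 130.2, 111 and 119.8 CPM at D14, against 152, 113 and 123 CPM at D0, a log2 fold change of -0.11 (SE 0.16). Dnajc8, a J-protein linked to splicing, was at 118, 108 and 103 CPM at D14, against 110.2, 104 and 124 CPM at D0, a value of -0.04 (SE 0.14). Both signs turned when 1 library was left out, Dnajc7 to 0.0345 without D0 replicate 1, and Dnajc8 to 0.0061 without D14 replicate 3 and 0.039 without D0 replicate 3. Dnajc5, the cysteine string protein of secretory vesicles, was at 62.9, 63.3 and 63.1 CPM at D14, against 63.9, 61.9 and 63.3 CPM at D0, and was named after its values were seen. Dnajb2, a J-protein tied to protein degradation in neurons, was at 44.7, 41.7 and 33.8 CPM at D14, against 48.3, 45.9 and 65.7 CPM at D0. Its D14 libraries all lay below those of D0, and its log2 fold change was -0.41 (SE 0.19) and -0.23 without D0 replicate 3. Hspa12b, an HSP70-like gene of endothelial cells, was at 75.0, 75.0 and 98.8 CPM at D14, against 122, 66.3 and 59.3 CPM at D0, with overlapping days and a value of 0.01 (SE 0.29), which became 0.41 when D0 replicate 1 was left out and -0.18 when D0 replicate 3 was.

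The 9 members below the filter on low counts were Cct6b, Cct8l1, Hsf3, Hsf5, Dnajb7, Dnajc22, Dnajc5b, Hspb3 and Hspb9, each with at most 11 counts in a library. Cct8l1 had 0 counts in all 3 D14 libraries and 2, 3 and 0 counts in the D0 libraries. No fold change is given for these genes, since both days are near the limit set by 3 counts.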

How the data were processed

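RNA of 3 lung libraries for each day was extracted with TRIzol and prepared with an NEB kit, per the labels' protocols. The submitters' processing notes name GRCm38, edgeR, StringTie 1.3.4b, HISAT2 2.1.0 and CASAVA 1.8 without their roles. Which tool counted reads, whether strand was used and the annotation release were not given in the sources used here. The authors deposited 1 table of estimated counts, with lines named by gene symbol and no scaling to depth. Only lines whose values were all whole numbers were used. Of 29757 lines, 4 were left out: those of Tnf and Tgfb1, which were empty, and 2 displaced lines with values that were not whole, so neither gene is analysed here. Lines that repeated a symbol numbered 50, and none was of a member.

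Genes were tested with edgeR 4.0.16 in R 4.3.3, TMM scaling, filterByExpr with default settings and a robust, two-sided quasi-likelihood F test on all 6 libraries, adjusted over all genes by Benjamini-Hochberg at 0.05. An SE was obtained by dividing the log2 fold change by the square root of its F, and a prior count of 2 entered log2 CPM. The test was tested on simulated data. Alternatives were DESeq2 1.42.0, limma-voom in limma 3.58.1, RLE or no scaling factors, other filters, no robust estimation, repeated symbols summed, the replicate number as a block and each library left out. Summing near-identical copies and ranges without D0 replicate 3 or 1 were chosen after seeing the data.

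Members, groups, partner lists, marker lists and motifs were chosen with earlier results of these data known. By rule, the text names each member at an unadjusted p under 0.05, the 2 members of each group with the highest CPM per kb, and a fixed set of family heads, and it gives members below the filter by their counts. Any other member or partner was named after its values were seen. The values of 1 member are not reported here. Annotation came from GENCODE M21 (GRCm38), which held 90 of the 91 members. Exons of 33 members overlap another gene, and 11 have a near-identical transcript (at least 95% over 300 bases, by blastn). Dnaja1, Hspa1a, Hspd1, Hspe1 and Dnajc7 are among those that overlap a gene on the opposite strand, so reads in their shared stretches are uncertain too.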

Additional observations from a re-analysis of the deposited data

How the results depend on the processing

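The count of members past the adjusted threshold was 0 in every alternative run except DESeq2, which gave 5: Hsph1 (adjusted p = 0.000121), Hspa1a (0.00739), Hspa4l (0.00962), Hspa1b (0.0123) and Bag3 (0.0363), with log2 fold changes within 0.02 of those of edgeR. DESeq2 called 274 genes in all, or 1.55%, and edgeR 6. The count at an unadjusted p under 0.05 was 14, and 8 to 23 when 1 library was left out. With the replicate number as a block it was 10, beside 8.39% of all genes, with 0 members past the adjusted threshold. Whether same-numbered libraries share more than a number is not stated. Their deviations from the day means correlated at 0.12, -0.055 and -0.097. D14 replicate 1 correlated best with D0 replicate 1, D14 replicate 2 with D0 replicate 3 and D14 replicate 3 with D0 replicate 2. The median of the constitutive group was 0.25, 0.17 without scaling factors and 0.18 to 0.29 when 1 library was left out. Leaving out 1 library gave medians of 0.46 to 0.55 for the inducible group, 0.24 to 0.34 for the ER group, 0.01 to 0.15 for the mitochondrial group and 0.04 to 0.25 for CCT. Without scaling factors the median of all genes was -0.10, against -0.03. The sign turned for 22 of the 82 tested members when 1 library was left out, 4 of them among the genes named by rule. Cct5 ran from -0.21 to 0.23 (0.0135 without D14 replicate 3, 0.23 without D0 replicate 3) and Dnajc8 from -0.089 to 0.039 (0.0061 and 0.039 under the same). Dnajc7 ran from -0.19 to 0.0345, the highest without D0 replicate 1, and Hspb1 from -0.18 to 0.53 (-0.18 without D0 replicate 1, -0.092 without D0 replicate 2). The causes were not tested.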
